A study of Mus musculus with 8 samples.

Results

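Kcnq1, Kcne1, Kcnh2, Hcn2 and Hcn4, 5 genes of delayed rectifier and pacemaker channels, were followed in the ventricles of mice lacking Med1 in the heart. They were chosen by symbol from the 23847 rows of the deposited expression table, and each of the 5 matched a single row. Poly(A) RNA came from ventricles of C57BL/6 mice at postnatal day 21, in 4 libraries of cardiac Med1 knockout mice (Med1cKO, genotype Med1KO) and 4 of controls labelled WT, which the series' design text gives as Med1fl/fl, so that both groups carry floxed Med1. Med1 encodes part of Mediator, a coactivator between transcription factors and RNA polymerase II. The sources used here do not name the promoter that drove the deletion or the number of animals per library, so p-values measure the spread between these libraries, which may in part be technical.

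Delayed rectifier potassium channels end the cardiac action potential. The slow current, IKs, flows through a pore of KCNQ1 subunits that the small single-pass protein KCNE1 slows and enlarges, and the rapid current, IKr, flows through the KCNH2 (ERG) channel. HCN channels open on hyperpolarisation, bind cyclic AMP and carry the pacemaker current. HCN4 is the main form of the sinoatrial node and HCN2 is prominent in working ventricle, where the pacemaker current is small. In the adult mouse ventricle repolarisation rests mostly on other potassium currents, and IKs and IKr are small.

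RefSeq promoter windows (GRCm38.p6, 250 bases before to 50 after the annotated start) matched 3 of the 5 genes, Kcnh2, Hcn2 and Hcn4, and are shown because these genes were all lower in the knockout. Letters in capitals are matches on either strand to AGGTCA, the half-site of many nuclear receptors, or to GGGCGG, the GC box, which run into each other where sites adjoin.
Kcnh2 promoter, chr5:24329542-24329841, minus strand: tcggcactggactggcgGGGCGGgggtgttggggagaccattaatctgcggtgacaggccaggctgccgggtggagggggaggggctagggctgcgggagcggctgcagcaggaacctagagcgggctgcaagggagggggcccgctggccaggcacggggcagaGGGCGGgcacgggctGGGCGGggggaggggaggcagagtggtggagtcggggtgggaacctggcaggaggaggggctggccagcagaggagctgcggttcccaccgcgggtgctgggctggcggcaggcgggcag
Hcn2 promoter, chr10:79716384-79716683, plus strand: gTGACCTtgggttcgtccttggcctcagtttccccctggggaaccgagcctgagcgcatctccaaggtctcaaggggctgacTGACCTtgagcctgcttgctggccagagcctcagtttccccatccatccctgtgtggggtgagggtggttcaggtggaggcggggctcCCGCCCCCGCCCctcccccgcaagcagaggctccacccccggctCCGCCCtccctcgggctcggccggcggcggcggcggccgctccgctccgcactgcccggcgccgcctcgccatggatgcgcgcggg
Hcn4 promoter, chr9:58822699-58822998, plus strand: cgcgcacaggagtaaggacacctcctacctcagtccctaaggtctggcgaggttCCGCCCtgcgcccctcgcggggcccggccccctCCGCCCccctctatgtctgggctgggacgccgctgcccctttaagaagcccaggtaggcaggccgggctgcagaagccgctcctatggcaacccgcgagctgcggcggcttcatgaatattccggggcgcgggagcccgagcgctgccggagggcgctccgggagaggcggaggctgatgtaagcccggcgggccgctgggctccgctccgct

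Each of the 3 windows held GC boxes, 3 in Kcnh2, 3 in Hcn2 and 2 in Hcn4. The motif stood in 35.7% of all 32851 RefSeq promoter windows of this length. Hcn2 alone of the 3 held AGGTCA, read as TGACCT on the printed strand, 249 and 168 bases before the start, and 16.3% of all windows held that motif. No match was found in the 3 windows to TATAAA, to the core MEF2 site or to TGATAA (a form of the GATA site), which 13.6%, 3.69% and 9.05% of all windows held. The windows had 74.3%, 72.3% and 71.7% G and C in Kcnh2, Hcn2 and Hcn4, against a median of 52.7% over all windows. A match describes these letters and is no evidence of binding. The Kcnh2 window belongs to the start at base 24329591 on chromosome 5, that of the shorter of 2 long GENCODE vM21 transcripts (11 exons). The longer transcript (15 exons) starts at 24351604, where the deposited locus ends. The deposited value is given per gene, and the transcripts it covers are not stated. For Hcn4 the RefSeq start (58822949 on chromosome 9) lies upstream of the GENCODE start (58823412) and of the deposited locus.

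Levels are FPKM, read fragments relative to library size and per kilobase of transcript, as the authors deposited them for each gene and library. FPKM totals ran from 481719 to 502629 in Med1cKO and from 507484 to 536174 in WT, and the number of fragments behind a value is unknown. Med1 itself had 7.80, 8.37, 7.89 and 9.15 FPKM in the 4 Med1cKO libraries and 15.5, 16.1, 10.6 and 16.8 FPKM in the 4 WT libraries (log2 change -0.74, limma adjusted p = 0.0011), so no knockout library reached the WT range. The ventricular light chain gene Myl2 was abundant in every library (4376 to 17417 FPKM), though it was called lower in Med1cKO. The median gene was 0.25 higher in Med1cKO on the log2 scale. Of the 11974 genes tested 44.9% were called higher and 16.4% lower, so that 73.2% of calls were higher, against 50.1% after median-of-ratios rescaling. That rescaling divides each library by the median ratio of its genes to their geometric means over the libraries. Knockout replicate 4 stood apart by 4 of 8 atrial markers, a subset chosen after its values were seen: Myl7, Myl4, Sln and Bmp10 summed to 1762 FPKM there, against 22.0 to 168 FPKM in the other knockout libraries and 3.77 to 6.34 FPKM in WT, where Sln and Bmp10 were listed at 0 throughout. The sum of all 8, most of it Nppa, did not single it out, at 7539 FPKM there and 7478, 7950 and 5058 FPKM in knockout replicates 1 to 3. Kcnj3 fell from 19.7 ± 3.57 FPKM in WT to 1.03 ± 0.63 FPKM in Med1cKO (SD, n = 4; limma adjusted p = 2.95e-06).

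All 5 channel genes fell in Med1cKO, and in none of them did the 2 groups of libraries overlap. Kcne1 fell most, to 7.97% of its WT mean, followed by Hcn4 (21.2%), Hcn2 (23.6%), Kcnh2 (27.8%) and Kcnq1 (51.0%). The call was made with limma on log2(FPKM + 1) at an adjusted p (Benjamini-Hochberg over all genes tested) under 0.05. Against the 5 of 5 members called lower, 16.4% of all genes tested were called lower, and 15.3% had every Med1cKO library below every WT library. Kcne1 and Hcn4 reached the expression minimum, a mean of 1 FPKM over all libraries, only through WT. With no minimum all 5 were still called (limma adjusted p = 0.000339 for Kcne1 and 0.00526 for Hcn4), as were 8.38% of genes in that direction. After that rescaling, which moved the median change of all genes to 0.01, all 5 were again called lower, as were 26.9% of all genes (27% higher). Exact permutation tests of each gene gave two-sided p = 0.0286, the smallest that the 70 assignments of 4 libraries against 4 can give.

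**Figure D1:**
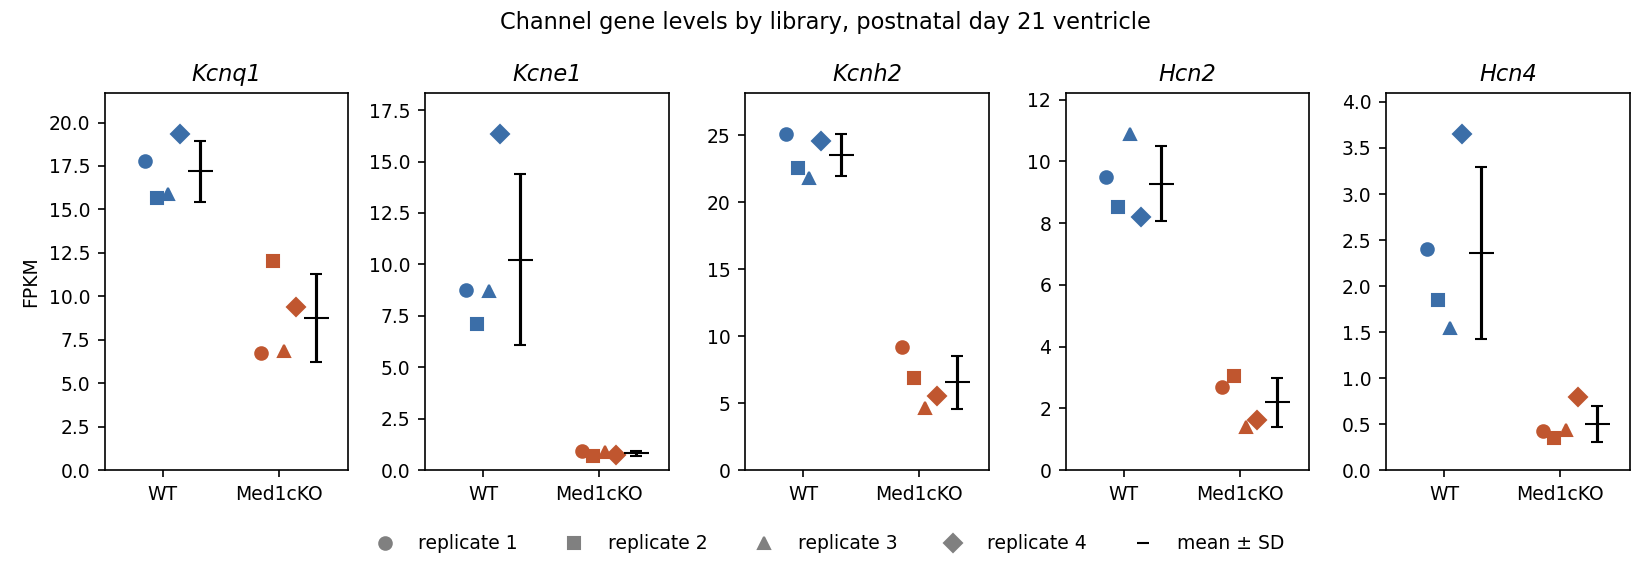
FPKM of each channel gene (vertical axes, from 0, a scale per gene) in the 4 WT and 4 Med1cKO libraries, with the mean and SD of each group beside the points. Marker shapes give replicate numbers, which are not known to pair libraries. Every Med1cKO library lies below every WT library for all 5 genes, and WT replicate 4 is the highest WT library for Kcnq1, Kcne1 and Hcn4.

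Kcnq1, the pore of IKs (chromosome 7, 143107254 to 143427042, mm10, protein-coding), had 17.8, 15.7, 15.9 and 19.3 FPKM in WT replicates 1 to 4 and 6.72, 12.1, 6.86 and 9.38 FPKM in Med1cKO replicates 1 to 4. The highest knockout library, replicate 2, came within 1.30 times of the lowest WT library. Mean levels were 17.2 ± 1.73 FPKM in WT and 8.75 ± 2.52 FPKM in Med1cKO (SD, n = 4 per group). The log2 change was -0.93 ± 0.17 (SE), the smallest of the 5 (limma adjusted p = 0.0010). The gene encloses the antisense RNA Kcnq1ot1, whose reads cannot be told apart from those of Kcnq1 if counting did not use strand. Kcnq1ot1 had 0.107 to 0.140 FPKM in WT and 0.151 to 0.200 FPKM in Med1cKO, so it was higher in every knockout library and, per kilobase, lay far below Kcnq1. Its listed locus spans 83437 bases, so a low FPKM can still stand for many fragments, whose number is unknown. 4933417O13Rik, also inside the gene, did not exceed 0.0572 FPKM in any library.

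Kcne1, the accessory subunit of IKs (chromosome 16, 92346001 to 92359468, protein-coding), had 8.74, 7.12, 8.70 and 16.3 FPKM in the WT libraries and 0.931, 0.681, 0.899 and 0.751 FPKM in the Med1cKO libraries. The knockout libraries lay close together, and WT replicate 4 held nearly the whole spread of its group. Mean levels were 10.2 ± 4.15 FPKM in WT and 0.815 ± 0.119 FPKM in Med1cKO (SD, n = 4 per group), a ratio of 12.5. On the log2(FPKM + 1) scale, which understates the change of low genes, the change was -2.57 ± 0.21 (SE, limma adjusted p = 1.09e-05), the 56th lowest of the 11974 genes tested. Without WT replicate 4 it was -2.34 (limma adjusted p = 6.75e-06).

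Kcnh2, the pore of IKr (chromosome 5, 24319589 to 24351604, protein-coding), was the most abundant of the 5 in WT, at 25.1, 22.6, 21.8 and 24.6 FPKM. In Med1cKO it had 9.18, 6.85, 4.60 and 5.53 FPKM, so the lowest WT library had 2.37 times the level of the highest knockout library. Mean levels were 23.5 ± 1.59 FPKM in WT and 6.54 ± 1.99 FPKM in Med1cKO (SD, n = 4 per group), and the log2 change was -1.73 ± 0.16 (SE; limma adjusted p = 2.53e-05). GENCODE places an antisense gene, Gm15589, inside Kcnh2, and the expression table has no row under that name.

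Hcn2, the more abundant of the 2 pacemaker channel members (chromosome 10, 79716634 to 79736108, protein-coding), had 9.51, 8.54, 10.9 and 8.19 FPKM in WT and 2.71, 3.03, 1.40 and 1.62 FPKM in Med1cKO. The 4 knockout libraries fell into a higher pair, replicates 1 and 2, and a lower pair, all under the WT range. Mean levels were 9.28 ± 1.21 FPKM in WT and 2.19 ± 0.80 FPKM in Med1cKO (SD, n = 4 per group), and the log2 change was -1.72 ± 0.18 (SE; limma adjusted p = 3.74e-05). The authors' deposited table also gives a large fall for Hcn2, from 11.9 to 2.33 pooled FPKM, but with a p-value of 0.613 and a q-value of 0.713. That table lists Hcn2 at a region of 672333 bases (chromosome 10, 79697305 to 80369637), which it assigns to 46 genes. Of these 36 were tested in the authors' deposited table and none was significant, the lowest q-value being 0.144, although it gives Fstl3 a log2 change of 4.97 (q-value 0.256) and Prss57 5.07 (q-value 0.267). In limma on the values per library 20 of the 33 genes of this region that reached the minimum were called (14 higher and 6 lower). Over all genes tested limma called 44.9% higher and 16.4% lower, so these counts lie near the background. In the authors' deposited table the other 4 members, whose listed regions held 1 tested gene each, were significant (q-value 0.000211, the lowest the table holds), where 22.8% of the genes tested there were significant and lower. The expression table gives the small RNA gene Bc1 the same wide region, with 0 to 4.23 FPKM.

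Hcn4, the sinoatrial form (chromosome 9, 58823512 to 58860955, protein-coding), was the least abundant of the 5 in WT, at 2.40, 1.85, 1.54 and 3.65 FPKM. In Med1cKO it had 0.425, 0.353, 0.431 and 0.791 FPKM. The highest library of each group was replicate 4, and the lowest WT library was still 1.95 times the highest knockout library. Mean levels were 2.36 ± 0.93 FPKM in WT and 0.500 ± 0.197 FPKM in Med1cKO (SD, n = 4 per group), and the log2 change was -1.13 ± 0.20 (SE; limma adjusted p = 0.000844). The size depends on the pseudocount at this low level, since adding 0.1 instead of 1 FPKM gave -2.01. Knockout replicate 4, highest in Hcn4 among the knockout libraries, was also the one highest in the summed level of Myl7, Myl4, Sln and Bmp10, though not in the sum of all 8 atrial markers, most of it Nppa. Without it the log2 change of Hcn4 was -1.22 (limma adjusted p = 0.00096), and without knockout replicates 1 and 4 it was -1.23 (limma adjusted p = 0.0032). Of the markers of sinoatrial and conduction cells, Shox2 stayed at or under 0.0545 FPKM in WT and 0.542 FPKM in Med1cKO, Isl1 at or under 0.0300 and 0.297 FPKM, and Vsnl1 was listed at 0 in all WT libraries. Others of that list were present: Tbx3 had 1.73 to 3.85 FPKM in WT and 1.39 to 2.23 FPKM in Med1cKO. Tbx18 had 1.32 to 2.06 and 2.16 to 3.37 FPKM. The 9 markers of that list summed to 35.5 to 44.6 FPKM in WT and 30.3 to 42.7 FPKM in Med1cKO, most of it from the less specific gene Smoc2. Of the 4 above the minimum 1, Tbx18, was called higher and none lower (none and 2 after rescaling). Over all genes tested 44.9% were called higher and 16.4% lower (27% and 26.9% after rescaling).

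**Figure D2:**
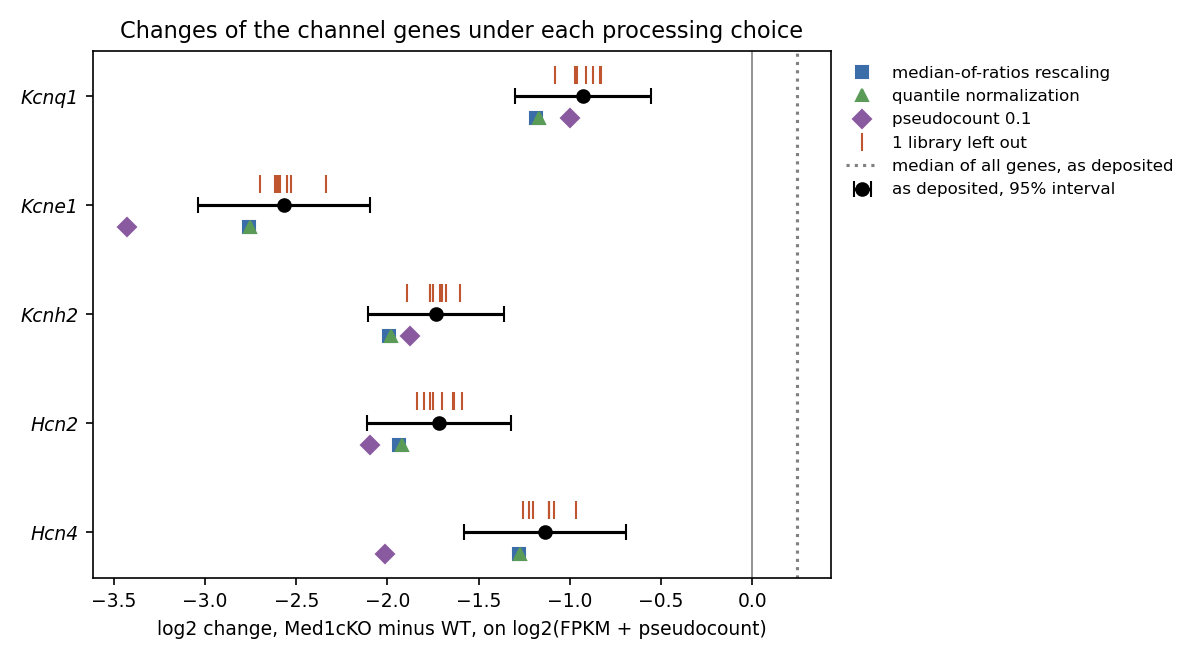
Log2 change of each channel gene, Med1cKO minus WT (horizontal axis), with its 95% interval from limma in black, the values after rescaling, quantile normalization or a pseudocount of 0.1 below it, and the values with 1 library left out as ticks above it. All points lie below 0, whereas the median of all genes (dotted line) lies at 0.25. Kcne1 lies farthest from 0 and Kcnq1 nearest, and the pseudocount moves Hcn4 from -1.13 to -2.01.

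FPKM is per length, so the levels of different genes could be set in order. In all 4 WT libraries Kcnh2 stood above Kcnq1, which stood above Kcne1 and Hcn2, and Hcn4 was the lowest. Kcne1 and Hcn2 did not differ beyond their spread in WT, with Kcne1 the higher only in replicate 4. In Med1cKO, Kcnq1 stood above Kcnh2 in 3 of 4 libraries, the exception being replicate 1, and Hcn2 ranked next below this pair in all 4. Kcne1 stood above Hcn4 in 3 of 4 knockout libraries and below it in replicate 4, so the order of these last 2 was not fixed.

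Ratios of members within a library do not depend on how libraries are scaled, and 3 were compared. The ratio of Kcne1 to Kcnq1, the partners of the IKs channel, was 0.491, 0.454, 0.547 and 0.845 in WT and 0.138, 0.0565, 0.131 and 0.0800 in Med1cKO. The groups did not overlap, and the mean log2 ratio was 2.57 lower in Med1cKO, a 5.95-fold difference. The exact permutation p was 0.0286 (two-sided, the smallest possible with 70 assignments), and 0.0857 adjusted over the 3 ratios, so it did not pass the correction. A ratio at the smallest p cannot pass unless another ratio reaches it too, so this correction cannot judge the ratio alone. With any 1 library left out its unadjusted exact permutation p stayed at 0.0286. Without knockout replicate 1 the ratio of Kcnh2 to Kcnq1 reached 0.0286 as well, and the adjusted exact permutation p was 0.0429.

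The ratio of Kcnh2 to Kcnq1, the pores of the rapid and the slow current, was 1.27 to 1.44 in WT. In Med1cKO it was 0.568, 0.671 and 0.589 in replicates 2, 3 and 4 and 1.37 in replicate 1, which lay within the WT range. The mean log2 ratio was 0.88 lower in Med1cKO (exact permutation p = 0.0571, 0.0857 adjusted over the 3 ratios), and the call turned on that library: without it the difference was 1.17 and the adjusted exact permutation p was 0.0429. The ratio of Hcn4 to Hcn2 was 0.253, 0.217, 0.141 and 0.446 in WT and 0.157, 0.116, 0.307 and 0.488 in Med1cKO. These ranges overlapped almost entirely. The mean log2 ratio was 0.08 lower in Med1cKO, with an exact permutation p of 0.914, and leaving out 1 library moved the difference between -0.45 and 0.24, so its direction was not fixed.

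**Figure D3:**
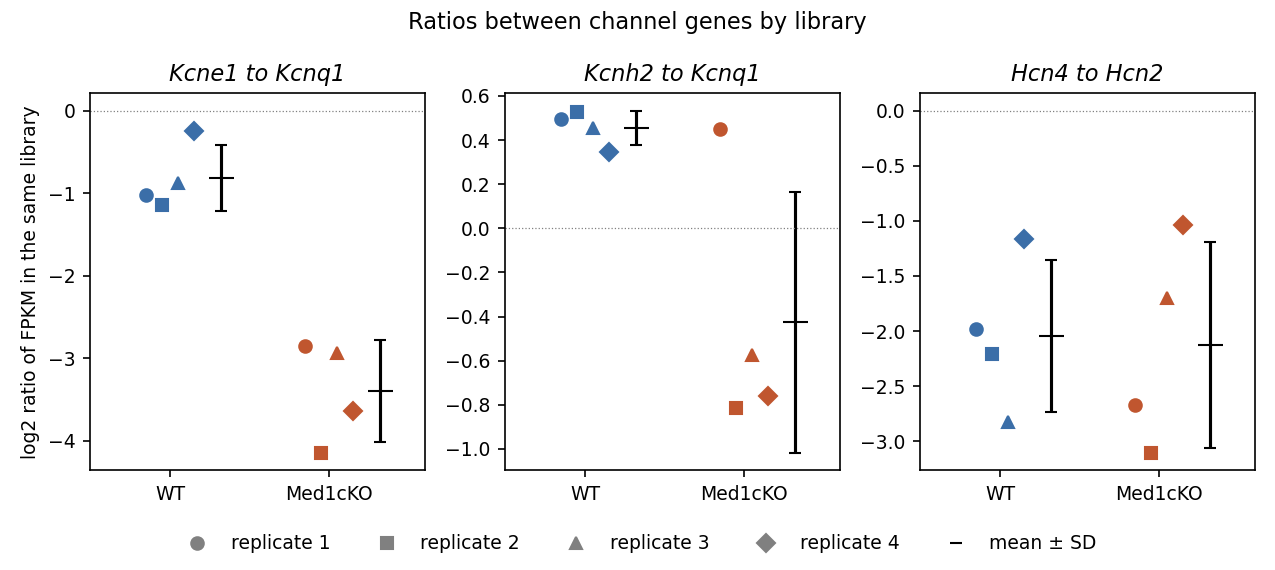
Log2 ratio of the FPKM of 2 channel genes within each library (vertical axes), for WT and Med1cKO, with the mean and SD of each group. Kcne1 to Kcnq1 separates the groups, Kcnh2 to Kcnq1 separates them except for knockout replicate 1, and Hcn4 to Hcn2 does not.

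The table holds 4 other KCNE genes, which encode small accessory subunits that tune potassium channel pores, and 1 of them reached the minimum. None was called lower, with or without the minimum. Over all genes tested 44.9% were called higher and 16.4% lower, and without a minimum 8.38% were lower. These genes are too few to set that count apart from the background. Kcne4, known to inhibit KCNQ1, was the only other KCNE gene above the expression minimum, and its mean went up from 2.51 ± 0.42 FPKM to 6.20 ± 1.59 FPKM (SD, n = 4), with a log2 change of 1.02 (limma adjusted p = 0.000496) and 0.80 after rescaling. WT libraries ranged from 1.99 to 3.01 and knockout libraries from 4.73 to 8.04 FPKM. Kcne3 (0.374 to 0.607 FPKM in WT, 1.10 to 1.33 in Med1cKO) lay below the minimum, and without a minimum its log2 change was 0.61 (limma adjusted p = 0.000387). Kcne1l had 0.167 to 0.487 and 0.546 to 2.01 FPKM and was not called without a minimum (limma adjusted p = 0.0788), and Kcne2 was listed at 0 in all libraries but knockout replicate 1. Kcne1 thus made up 69.4% to 84.1% of the summed KCNE level in WT and 7.00% to 12.1% in Med1cKO, while Kcne4 made up 10.3% to 24.4% and 54.5% to 75.0%. The sum itself went from 13.5 ± 4.08 to 9.30 ± 1.37 FPKM (SD, n = 4), and its ranges overlapped. These shares were computed after the values were seen and were not tested.

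Among the HCN genes the sum was lower in every knockout library, while the ranges of its makeup overlapped between the groups. Hcn2, Hcn3 and Hcn4, the 3 HCN genes described here, summed to 10.4 to 12.5 FPKM in WT and 1.88 to 3.39 FPKM in Med1cKO. Hcn2 made up 68.7% to 87.1% of that sum in WT and 65.4% to 89.6% in Med1cKO, and Hcn4 12.3% to 30.6% and 10.4% to 31.9%. Hcn3 did not exceed 0.0752 FPKM in any library.

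**Figure D4:**
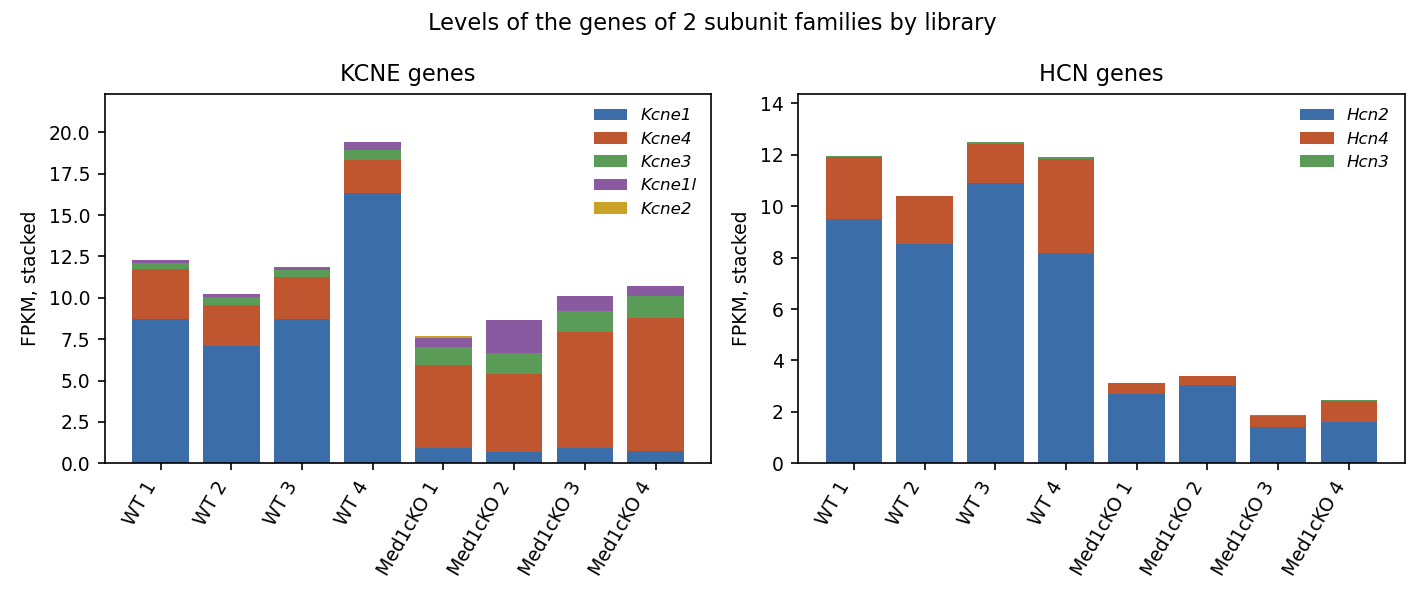
Stacked FPKM of 5 KCNE genes (left) and 3 HCN genes (right) in each library (vertical axes start at 0). Kcne1 fills most of each WT bar and Kcne4 most of each Med1cKO bar, while Hcn2 fills most of every HCN bar and the Med1cKO bars are shorter.

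Further genes of these channels and their regulators were taken from lists of 66 genes, of which 65 were in the table and 42 reached the minimum. Among those 42, limma called 12 higher and 11 lower, with rescaled libraries 9 higher and 19 lower. Over all genes tested, 44.9% were called higher and 16.4% lower, and 27% and 26.9% with rescaled libraries, which is the background for the counts of each list that follows. Other KCNQ and KCNH genes of these lists were barely present. Kcnq5 had 0.257 ± 0.063 and 0.381 ± 0.199 FPKM and lay below the minimum, and Kcnq3 was listed at 0 in WT with a mean of 0.0276 FPKM in Med1cKO. All 7 other KCNH genes lay below it, Kcnh1 and Kcnh3 included (means of 0.0189 and 0.0586 FPKM in WT and 0.0899 and 0.0375 in Med1cKO). Among other voltage-gated delayed rectifier subunits, 1 of the 2 above the minimum was called lower and none higher. Kcna5 (Kv1.5) had 16.0 ± 1.47 and 12.5 ± 2.56 FPKM, with overlapping libraries, and its limma adjusted p of 0.0485 rose above the threshold in 11 of 19 alternatives (from 0.00518 to 0.372 over them).

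Genes that anchor, regulate or fold the IKs and IKr channels went both ways, of which 5 of 18 rose and 4 fell (5 and 7 after rescaling), with a median log2 change of 0.12, against 0.25 for all genes. Fhl2, a LIM domain protein of heart muscle, fell from 1284 ± 245 to 155 ± 32.4 FPKM (SD, n = 4; log2 change -3.04, limma adjusted p = 1.96e-06). Rnf207, a RING finger protein that raises ERG current, fell from 35.9 ± 2.18 to 7.68 ± 2.50 FPKM, a log2 change of -2.13. Hsp90aa1, a chaperone of ERG folding, rose from 58.1 ± 15.4 to 394 ± 79.7 FPKM, a log2 change of 2.75. Calm3 and Calm2, which encode the calmodulin that KCNQ1 binds, rose too, Calm3 from 79.4 ± 5.0 to 171 ± 23.4 FPKM (log2 change 1.09) and Calm2 by 1.01 on the log2 scale. These 5 genes were called after rescaling too. Akap9, the scaffold that holds protein kinase A to KCNQ1, had 7.59 ± 0.72 FPKM in WT and 7.09 ± 0.59 in Med1cKO and was not called (limma adjusted p = 0.428), though after rescaling its log2 change of -0.33 was (limma adjusted p = 0.00841). It was named after its values were seen.

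Of 9 measured genes for cyclic AMP supply, its breakdown and HCN partners, 3 rose and 2 fell (rescaled: 2 and 4), with a median log2 change of -0.01 against 0.25 for all genes. The adenylyl cyclase gene Adcy6 fell from 52.3 ± 1.69 to 30.3 ± 4.08 FPKM (SD, n = 4; log2 change -0.78, limma adjusted p = 0.000136), and the phosphodiesterase gene Pde4d fell from 5.97 ± 0.78 to 2.69 ± 0.79 FPKM. Popdc3, of a family of cyclic AMP binding membrane proteins, rose from 9.64 ± 1.69 to 18.7 ± 2.04 FPKM. Flna, the actin crosslinker filamin A, rose from 36.9 ± 4.76 to 90.7 ± 21.5 FPKM.

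Among 12 measured transcription factors of pacemaker and conduction tissue, 3 rose and 4 fell (rescaled: 1 and 7), with a median log2 change of -0.26 against 0.25 for all genes. Of all genes tested 44.9% were called higher and 16.4% lower (rescaled: 27% and 26.9%). Tbx20, a T-box factor of heart muscle, rose from 21.3 ± 0.69 to 52.6 ± 2.55 FPKM (SD, n = 4; log2 change 1.26, limma adjusted p = 1.14e-06). Thrb, a thyroid hormone receptor, fell from 6.08 ± 0.55 to 3.01 ± 0.62 FPKM, and Etv1, a factor of fast-conducting heart tissue, from 4.10 ± 0.73 to 2.50 ± 0.51 FPKM. Tbx5, a T-box factor of the conduction system, fell to 2.98, 1.68 and 2.24 FPKM in knockout replicates 1 to 3 and had 6.41 FPKM in replicate 4, within the WT range of 5.41 to 7.54 (limma adjusted p = 0.0174). Without knockout replicate 4 its log2 change went from -0.90 to -1.20, but it did not pass without knockout replicate 3 (limma adjusted p = 0.0519) or with no expression minimum (limma adjusted p = 0.0751).

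**Figure D5:**
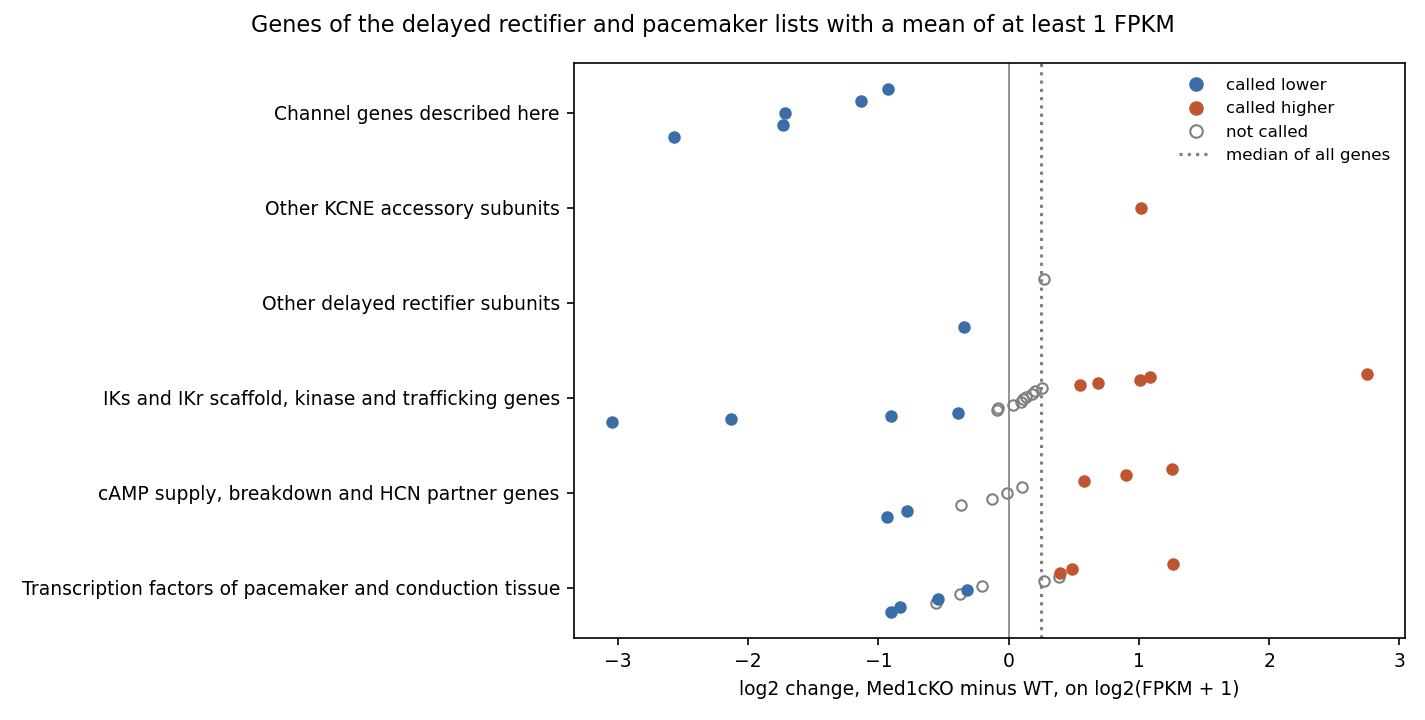
Log2 change (horizontal axis, Med1cKO minus WT) of each gene with a mean of at least 1 FPKM, by list (rows), filled where called by limma. The 5 channel genes all lie left of 0, while the scaffold, cyclic AMP and transcription factor rows spread to both sides.

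Markers of other cells moved as follows beside these changes. The background for their counts is all genes tested, of which 44.9% were called higher and 16.4% lower (27% and 26.9% after rescaling). Of 10 working cardiomyocyte markers 9 fell and 1, Actn2, rose, and their summed level was 51052 to 57273 FPKM in WT and 18229 to 28260 FPKM in Med1cKO. In bulk tissue fewer cells of a type and less RNA per cell cannot be told apart. Of 6 fibroblast markers 5 rose, or 3 after rescaling (summed level 495 to 579 FPKM in WT, 772 to 1282 in Med1cKO). Of 6 endothelial markers 1 rose and 2 fell, against none and 4 after rescaling (243 to 298 and 236 to 304 FPKM). Of 5 macrophage markers none was called, against 1 lower after rescaling (145 to 243 and 113 to 243 FPKM). Of 6 smooth muscle and pericyte markers 1 rose and 3 fell, against none and 3 after rescaling (388 to 557 and 347 to 459 FPKM). Of 8 atrial markers 4 rose and 2 fell, with sums of 224 to 417 FPKM in WT and 5058 to 7950 FPKM in Med1cKO, most of it Nppa. Nerve and Schwann cell markers summed to 2.48 to 3.78 and 3.39 to 10.2 FPKM, the highest in knockout replicate 4, with Th listed at 0 in WT, and skeletal fibre markers to 1355 to 1902 and 350.0 to 939 FPKM, nearly all Ckm, which heart muscle also makes. The part of these cells in the fall of the channel genes was not tested.

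The genes whose levels ran most like each member over the 8 libraries were found by Pearson's r on log2(FPKM + 1), among 11973 other genes. This is a description: with 2 separated groups, 368 to 920 genes passed an r of 0.9 with a member, and libraries share depth and scaling. For Kcnq1 they were Naa10 (r = 0.994), Cars2 and Speg, and for Kcne1 they were Mtif2 (r = 0.993), Mettl17 and Fam78a. For Kcnh2 they were Acss1 (r = 0.996) and Gdpd1. For Hcn2 they were Fhod3 (r = 0.996), the L-type calcium channel gene Cacna1c (26.4 ± 3.29 FPKM in WT and 10.5 ± 1.67 in Med1cKO, SD, n = 4) and Ppargc1a. For Hcn4 they were Gm1078 (r = 0.993), Sbk2 (2.72 ± 1.11 and 0.111 ± 0.125 FPKM) and Tmem14a.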

How the data were processed

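Reads of 8 ventricle libraries were aligned to mm10 with TopHat (version 1.0.0), and Cufflinks and Cuffdiff gave levels and tests, as the submitters' processing notes name them. The sources used here do not state the annotation, Cufflinks version or strand setting. Per the file headers, the values the authors deposited for each library are FPKM. A value of 0.001 stood for 0 and was set back, and words in place of numbers (312 rows in every library, and 1 row, Cacna2d1, in 1 library) were treated as missing. The authors' deposited table holds pooled FPKM, log2 fold changes, the test statistic (a score), p-values and q-values. Each column carries the description of 1 sample, whose title gave its group and number.

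The main test was limma (version 3.58.1, R 4.3.3) with its trend option, applied to log2(FPKM + 1) of the 11974 genes whose mean reached 1 FPKM, two-sided, with Benjamini-Hochberg adjustment. It was checked on simulated data in which few genes changed, drawn evenly in both directions. That check does not cover a shift of many genes to 1 side, as in the excess of higher calls here. Exact permutation tests compared single genes and ratios. Members and lists were chosen with earlier results of these data known. The text names the members, Med1, genes at overlapping loci, per list up to 4 called genes of largest change (or the 2 most abundant), and up to 3 genes of like pattern per member. Other genes were named after their values were seen, and some genes of the lists are not reported here. Alternatives varied the pseudocount, minimum, scaling and variance model, added a replicate block, and left out libraries. Loci count from 1.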

Additional observations from a re-analysis of the deposited data

Results flagged for a closer look

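Within a group of 4 libraries, a library was singled out where its gap to the nearest other over the group's range exceeded Dixon's 95% critical value, which chance gives in about 1 of 20 groups. Of 56 groups of values examined, 2 met this. Tbx20 had 48.8 FPKM in knockout replicate 4, against 53.4 to 54.2 FPKM in the others. The ratio of Kcnh2 to Kcnq1 was 1.37 in knockout replicate 1 and 0.568 to 0.671 in the others. Kcne1 in WT (replicate 4) and Hcn4 in Med1cKO (replicate 4) came just short, with gaps of 0.824 and 0.820 of the range.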

How the results depend on the processing

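The fall of all 5 channel genes kept its direction and its call under every alternative run in which the gene was tested (Hcn4 was not tested at a minimum mean of 5 FPKM). Their log2 changes ranged from -1.19 to -0.83 in Kcnq1, -3.43 to -2.32 in Kcne1, -1.99 to -1.60 in Kcnh2, -2.09 to -1.59 in Hcn2 and -2.01 to -0.96 in Hcn4. With 1 library left out they ranged from -1.08 to -0.83, -2.70 to -2.34, -1.89 to -1.60, -1.84 to -1.59 and -1.26 to -0.96 in the same order.

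After median-of-ratios rescaling 3236 genes were higher and 3223 lower, and 19 genes of the pathway lists were lower. After quantile normalization these were 3431, 3065 and 19, against 5371, 1964 and 11 as deposited. With no minimum, or a minimum of 5 FPKM, 7 list genes were lower, and with 1 library left out 8 to 12. The log2 ratio of Hcn4 to Hcn2 changed sign, from -0.08 to 0.079, with a pseudocount of 0.1, and ranged from -0.45 to 0.24 with 1 library left out. With 1 library left out the log2 ratios of Kcne1 and Kcnh2 to Kcnq1 differed by -2.75 to -2.32 and -1.17 to -0.75. They passed, at an adjusted exact permutation p of 0.0429, only without knockout replicate 1, where both ratios reached the smallest possible p. Without replicate 4 of each group the difference in Kcne1 to Kcnq1 was -2.30. Without knockout replicates 1 and 4 the lists had 12 genes higher and 9 lower, and without replicate 4 of each group 13 and 10, both settings chosen after seeing the data.

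Replicate numbers showed no sign of marking pairs, though weak correlations cannot exclude pairing. Deviations of same-numbered libraries correlated at -0.04 to 0.14, and 1 of 4 knockout libraries correlated best with its own number. With a replicate block 5089 genes were higher and 1867 lower, and the 5 members kept their calls (Kcnq1 limma adjusted p = 0.0029, the highest). With 4 pairs the sign-flip test of a ratio cannot go below an exact p of 0.125. The number of fragments behind an FPKM is unknown, which limits Hcn4 and Kcne1 in the knockout most.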
